A study of Homo sapiens with 6 samples.

Results

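The genes described here encode the MHC class II antigen presentation system: the classical chains HLA-DRA, HLA-DRB1, HLA-DQA1, HLA-DQB1, HLA-DPA1 and HLA-DPB1, the peptide exchange factor HLA-DMA and HLA-DMB, the invariant chain CD74, and CIITA. They are 10 of the 20033 protein-coding genes on the main chromosomes of the RefSeq table. The genes were chosen by name, and a peak was assigned to a gene when it overlapped the gene's GRCh38 span plus 5 kb on either side by at least 1 bp. Chromatin accessibility was measured by ATAC-seq, in which a transposase cuts open DNA, in the established human line NCI-H1703, derived from a squamous cell carcinoma of the lung. In 3 libraries the long non-coding RNA DLGAP1-AS2 had been silenced (titles ASO), and 3 libraries came from control cells (titles NC). All 6 come from this 1 line. The labels give neither the silencing agent's design, dose and time nor the control agent, and do not say whether replicates were separate cultures, so p-values measure only the spread between these libraries.

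Class II molecules carry peptides from endosomes to the cell surface, where CD4+ T cells read them. Dendritic cells, B cells and macrophages express them constantly, whereas most other cells, epithelial ones included, do so after interferon-γ. The switch is CIITA, a co-activator that does not bind DNA itself but docks on a complex assembled over the X and Y boxes of class II promoters. RFX proteins and CREB1 hold the X box and NF-Y holds the Y box.

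The promoters of the class II genes were read from RefSeq (GRCh38.p14), where 8 of the 10 genes had an entry, with 9 listed starts because HLA-DPA1 has a pair. They are shown because the peaks are compared at these starts. Each run covers 250 bases before the start and 50 from it on, 5′ to 3′ on the gene's strand, and capitals mark matches on either strand to a core of the X box, AGNNACNGA, and to the Y box, ATTGG.
HLA-DMA (chr6:32953048-32953347, minus strand): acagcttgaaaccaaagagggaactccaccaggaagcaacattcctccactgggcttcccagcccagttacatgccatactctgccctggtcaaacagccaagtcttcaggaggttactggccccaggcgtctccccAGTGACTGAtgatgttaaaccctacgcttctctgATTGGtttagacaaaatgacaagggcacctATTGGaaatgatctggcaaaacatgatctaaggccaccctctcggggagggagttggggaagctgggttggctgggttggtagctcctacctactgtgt
HLA-DQB1 (chr6:32666608-32666907, minus strand): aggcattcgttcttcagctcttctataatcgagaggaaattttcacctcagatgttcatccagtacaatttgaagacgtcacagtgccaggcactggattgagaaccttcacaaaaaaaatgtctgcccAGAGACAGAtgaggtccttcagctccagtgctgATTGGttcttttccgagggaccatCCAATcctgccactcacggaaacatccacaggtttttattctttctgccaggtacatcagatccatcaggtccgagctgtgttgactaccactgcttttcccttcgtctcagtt
HLA-DRB1 (chr6:32589799-32590098, minus strand): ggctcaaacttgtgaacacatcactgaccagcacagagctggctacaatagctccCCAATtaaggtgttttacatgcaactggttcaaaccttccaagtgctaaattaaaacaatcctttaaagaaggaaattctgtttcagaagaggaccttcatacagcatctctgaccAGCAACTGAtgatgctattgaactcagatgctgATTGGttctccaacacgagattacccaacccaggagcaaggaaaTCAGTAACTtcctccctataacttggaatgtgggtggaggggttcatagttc
HLA-DQA1 (chr6:32637156-32637455, plus strand): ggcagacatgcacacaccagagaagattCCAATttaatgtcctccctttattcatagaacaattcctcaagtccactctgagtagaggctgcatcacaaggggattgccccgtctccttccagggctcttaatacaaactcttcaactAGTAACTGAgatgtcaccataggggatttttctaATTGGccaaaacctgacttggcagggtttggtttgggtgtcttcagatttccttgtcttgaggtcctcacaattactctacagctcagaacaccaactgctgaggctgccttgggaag
HLA-DMB (chr6:32940979-32941278, minus strand): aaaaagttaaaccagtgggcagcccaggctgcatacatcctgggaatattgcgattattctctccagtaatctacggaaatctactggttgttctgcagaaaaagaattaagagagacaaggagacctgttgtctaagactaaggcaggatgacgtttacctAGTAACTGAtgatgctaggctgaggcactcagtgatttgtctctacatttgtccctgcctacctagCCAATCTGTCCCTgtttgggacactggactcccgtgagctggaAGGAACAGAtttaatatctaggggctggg
HLA-DPA1, inner start (chr6:33073600-33073899, minus strand): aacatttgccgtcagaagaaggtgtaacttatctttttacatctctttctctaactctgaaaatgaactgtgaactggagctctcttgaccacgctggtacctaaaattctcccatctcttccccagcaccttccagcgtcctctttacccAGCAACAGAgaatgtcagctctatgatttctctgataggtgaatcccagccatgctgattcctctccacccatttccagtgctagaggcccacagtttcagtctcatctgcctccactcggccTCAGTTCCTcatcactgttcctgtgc
HLA-DPA1, outer start (chr6:33080699-33080998, minus strand): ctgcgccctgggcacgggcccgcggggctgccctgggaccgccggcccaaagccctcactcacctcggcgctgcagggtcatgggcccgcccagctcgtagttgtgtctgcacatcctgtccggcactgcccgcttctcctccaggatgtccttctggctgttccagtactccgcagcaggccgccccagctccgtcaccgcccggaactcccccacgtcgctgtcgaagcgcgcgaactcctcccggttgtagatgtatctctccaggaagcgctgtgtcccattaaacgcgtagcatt
HLA-DPB1 (chr6:33075740-33076039, plus strand): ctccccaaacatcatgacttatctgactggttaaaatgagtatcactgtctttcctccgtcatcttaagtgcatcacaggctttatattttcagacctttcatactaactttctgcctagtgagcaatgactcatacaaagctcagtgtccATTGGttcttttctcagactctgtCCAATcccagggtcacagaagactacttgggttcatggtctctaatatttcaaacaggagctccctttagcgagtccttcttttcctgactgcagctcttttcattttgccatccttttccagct
CD74 (chr5:150412861-150413160, minus strand): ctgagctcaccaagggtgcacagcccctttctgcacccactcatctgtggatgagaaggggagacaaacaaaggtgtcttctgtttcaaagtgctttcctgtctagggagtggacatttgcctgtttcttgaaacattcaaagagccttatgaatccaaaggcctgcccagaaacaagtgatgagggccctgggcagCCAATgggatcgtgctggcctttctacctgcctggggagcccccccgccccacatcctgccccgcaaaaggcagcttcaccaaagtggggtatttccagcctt

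The X core occurred in 6 of the 9 promoters and in 15.3% of the 35116 promoters in the table. The Y box occurred in 7 of the 9 and in 34.6% of all. An X core with a Y box starting 15 to 50 bases after it, read on the strand of the core, occurred in 4 (HLA-DRB1, HLA-DQA1, HLA-DQB1 and HLA-DMA) and in 0.82% of all. In these 4 the Y box began 33 or 34 bases after the first base of the core. The motif letters and this spacing were set with the sequences in view, and the genes are related copies, so the matches are descriptions and not sites of binding. Among the sequences above, the outer start of HLA-DPA1 holds neither motif, and CD74 and HLA-DPB1 hold a Y box but no X core with these letters.

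The 6 lists held 91346 to 170882 peaks. Read numbers are not given, so depth is unknown. Silenced replicate 3 had the lowest background coverage (0.237, against 0.369 to 0.464 in the others). The list of control replicate 2 was the shortest, with 2.46% of its peaks lower than a height of 4, against 48.1% to 52.1% elsewhere. Height is the authors' pileup, the number of fragments stacked at a peak, and fold enrichment is the authors' ratio of a peak to its background. The labelled cell type was checked at the starts of 5 squamous or epithelial markers: SOX2 had a start peak in all 6 libraries, TP63 in 1, KRT17 in 1, EPCAM in 3 and KRT5 in 0. Of 7 leukocyte markers, PTPRC, CD79A, MS4A1 and CD37 had no start peak in any library, CD14 had 1 in a single library, and ITGAX and SPI1 had one in all 6. PECAM1 had a start peak in 2 libraries and COL1A1 in 0. These marker starts include span ends where no start was listed, so a peak can belong to a neighbouring gene.

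Peaks were called in the windows of most of these genes, as in those of most protein-coding genes, and with unequal strength. A peak lay in the window of all 10 genes in every silenced library, and of 9 or 10 in the control libraries. Of the 10 genes, 9 had a window peak in all 6 libraries, against 83.2% of all protein-coding genes. HLA-DQA1 had none in control replicate 2. Within 1 kb of a listed start, or of either span end for HLA-DRA and CIITA, 7 of the 10 had a peak in all 6 libraries, where 58.9% of protein-coding genes did. These were HLA-DRB1, HLA-DQB1, HLA-DPA1, HLA-DPB1, HLA-DMA, HLA-DMB and CIITA, the last only through a peak at the start of its neighbour DEXI. Without silenced replicate 3, or without control replicate 2, the count was 8. At a false discovery rate (FDR, the authors' adjusted p-value) of at most 1e-05 the count was 3, namely HLA-DPA1, HLA-DMA and HLA-DMB. It was 5 once silenced replicate 3 was also left out. The share of all protein-coding genes was not computed under this filter or without these libraries. None of the 10 had a start peak 3 times in one group and 0 times in the other, a pattern seen at 0.25% of protein-coding genes.

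**Figure D1:**
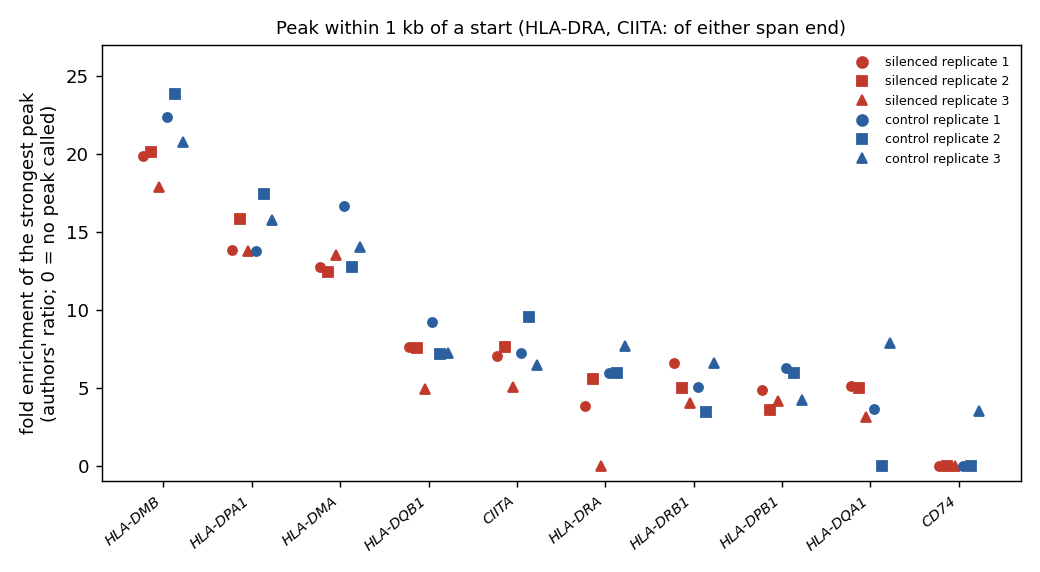
Fold enrichment of the strongest peak within 1 kb of a start (y axis, the authors' ratio, 0 where no peak was called) for each of the 10 genes, with 1 point per library, red for silenced and blue for control. HLA-DMB lies highest, between 17.9 and 23.8, and CD74 has a start peak only in control replicate 3. For HLA-DRA and CIITA either span end was used, and the CIITA points are the start peak of DEXI.

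The HLA-DM genes and HLA-DPA1 had the strongest start peaks. HLA-DM frees the class II groove of the invariant chain's remnant so that antigen peptides can bind. At the start of HLA-DMB (region chr6:32940712-32941305) the heights were 55, 57 and 38 in the silenced libraries, in the order of their replicate numbers, and 63, 71 and 63 in the control ones. The fold enrichments were 19.9, 20.1 and 17.9 in silenced and 22.4, 23.8 and 20.8 in control libraries. All 3 control libraries were above all 3 silenced libraries on both measures. Among all regions called in all 6 libraries, this order occurred at 8.44% in fold enrichment and at 8.79% in height. The peak stood among the strongest 1.01% to 1.88% of each list. At HLA-DMA (chr6:32952955-32953522) the start peak reached heights of 35, 35 and 30 in silenced and 54, 38 and 41 in control libraries. Its fold enrichments were 12.8, 12.4 and 13.5 against 16.7, 12.7 and 14.0, so that the groups overlapped in fold enrichment but not in height. Peaks flanked the gene in every library. The region 2077 bp upstream of the start (chr6:32955000-32955347) had heights of 15, 16 and 9 in silenced and 16, 13 and 11 in control libraries. The one 5173 bp downstream (chr6:32947674-32948175) had 22, 19 and 6 against 21, 26 and 18.

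HLA-DPA1, the DP alpha chain, had a peak called at the inner of its 2 listed starts and none at the outer one. The inner region (chr6:33073398-33073923), centred 12 bp from that start, had heights of 25, 35 and 26 in silenced and 31, 46 and 34 in control libraries. No library had a peak overlapping the promoter shown for the outer start. A further region (chr6:33082501-33083080), centred 2043 bp upstream of the outer start, was called in all 6 libraries at heights of 3, 11 and 5 in silenced and 6, 9 and 17 in control libraries. HLA-DPB1, the DP beta chain, is transcribed in the opposite direction from a nearby start and shares these peaks within its window. Its own start region (chr6:33075735-33076053) was weaker, with heights of 8, 7 and 7 in silenced and 13, 15 and 8 in control libraries. The libraries of the groups met at a height of 8.

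The DQ and DR genes had weaker start peaks. HLA-DQB1, the DQ beta chain, had heights of 11, 14 and 6 in silenced and 17, 11 and 12 in control libraries at its start (chr6:32666382-32666955). A similar region 1858 bp upstream (chr6:32668325-32668705) had 10, 15 and 8 in silenced and 15, 10 and 17 in control libraries. The groups overlapped at both. HLA-DQA1, the DQ alpha chain, had start heights of 6, 6 and 3 in silenced libraries and 4 and 10 in control replicates 1 and 3, with no peak in control replicate 2. HLA-DRB1, the DR beta chain, had a single peak in its window in each library, over the start, with heights of 8, 6 and 4 in silenced and 6, 4 and 8 in control libraries. Its values thus covered the same range in both groups.

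HLA-DRA, the shared DR alpha chain, has no entry in the promoter table. The peak at the lower end of its span (chr6:32439635-32439968) had a height of 5 in silenced replicate 1 and of 8 in silenced replicate 2, was not called in silenced replicate 3, and had 8, 10 and 11 in control libraries. Another region lay outside the span, about 2 kb below that end in coordinates (chr6:32437502-32437837). It was called at heights of 3 and 5 in silenced replicates 1 and 3, and not in silenced replicate 2. In control libraries its heights were 10, 10 and 5. The control libraries thus had both sites called, silenced replicate 2 lacked the second and silenced replicate 3 the first. HLA-DRB1, HLA-DQA1 and HLA-DQB1 have close copies in the genome, and how reads that match several copies were treated is not given in the sources used here. The copies themselves were rarely called: HLA-DRB5 had a window peak in 1 library, HLA-DQA2 in 3 and HLA-DQB2 in 3.

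**Figure D2:**
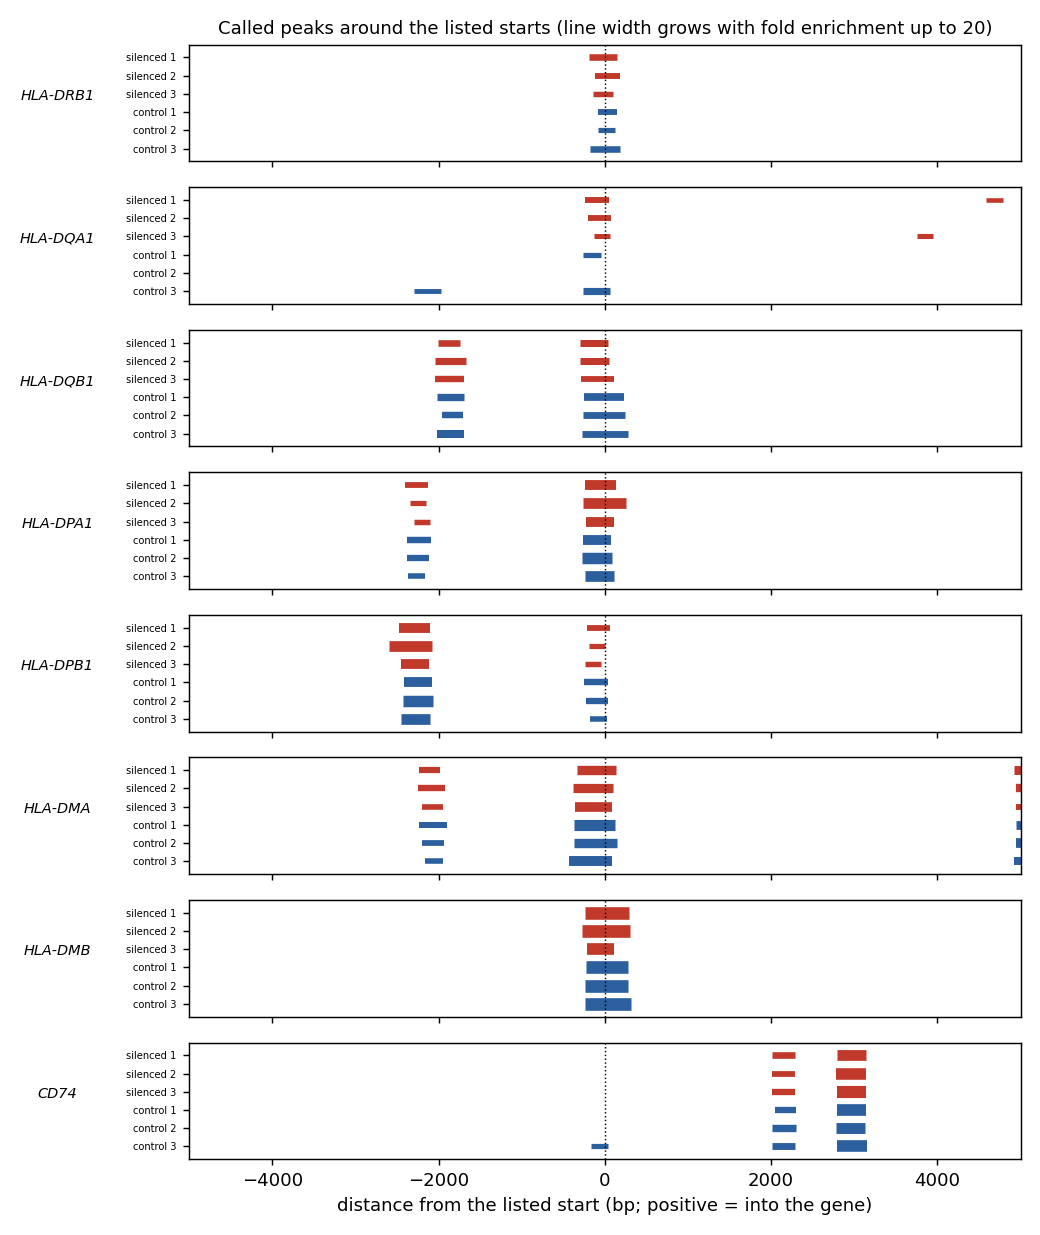
Position of called peaks (x axis, distance in bp from the listed start, the inner one for HLA-DPA1) in each of the 6 libraries for 8 genes, with line width growing with fold enrichment. Peaks lie within 1 kb of the start in all 6 libraries at 6 of the 8 genes. HLA-DQA1 lacks one in control replicate 2, and the tallest CD74 peak lies 2966 bp into the gene.

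The start peaks were also placed among those of other genes. Among the 11803 protein-coding genes with a start peak in all 6 libraries, the median of each gene's median fold enrichment was 11.8. HLA-DMB exceeded 95.4% of these genes, HLA-DPA1 69.8% and HLA-DMA 59.4%. HLA-DQB1 exceeded 19.4%, HLA-DRB1 5.74% and HLA-DPB1 3.34%. Over libraries, the fold enrichments of HLA-DPA1 (13.8 to 17.4) and HLA-DMA (12.4 to 16.7) overlapped, as did those of HLA-DRB1 (3.42 to 6.58) and HLA-DPB1 (3.57 to 6.25).

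CD74 encodes the invariant chain, which fills the groove of new class II molecules and steers them to endosomes, and it has other roles at the cell surface. The peaks called in all 6 libraries lay inside the gene or beyond its far end, and none at its start. The tallest region (chr5:150409762-150410127), 2966 bp downstream of the start, had heights of 90, 124 and 85 in silenced and 109, 110 and 119 in control libraries. A second one 2153 bp downstream (chr5:150410614-150410900) had 37, 33 and 26 in silenced and 35, 56 and 47 in control libraries. The groups overlapped at both. Another region, 14134 bp downstream (chr5:150398572-150398980), lies in the span of the neighbouring gene TCOF1 and had 22, 15 and 11 against 13, 17 and 13. A CD74 start peak was called only in control replicate 3, at a height of 20, a fold enrichment of 3.50 and an FDR of 2.74e-05. The background behind the CD74 peaks, computed as (height + 1) / fold enrichment − 1, was 4.78 to 15.5 times the lowest background of the library, against 0.999 to 1 times at HLA-DRB1, 1.69 to 6.05 at HLA-DMA, 1.32 to 5.59 at HLA-DMB and up to 8.31 in the CIITA window. The background's part in the missing start calls was not tested. By p-value the tallest CD74 peak was preceded by 0.461% ± 0.315 of the listed peaks in silenced libraries and by 0.556% ± 0.443 in control libraries (SD, n = 3 each). The difference was smaller than the spread (two-sided exact permutation test, p = 0.7; 3 against 3 cannot go below 0.1). Its sign, −0.0947 percentage points as silenced minus control, turned without silenced replicate 3 (0.035) and without control replicate 2 (0.16).

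CIITA had no recurrent peak at the lower end of its span (10866206 on chromosome 16). Within 1 kb of that end a peak was called in silenced replicate 2 alone, at a height of 3. CIITA is transcribed from several alternative promoters that differ between cell types. In the first 12 kb of the span 6 regions were called, none in more than 2 of the 6 libraries and none higher than 5. The strongest site that lies in the span of CIITA and of no other listed gene was 52.6 kb from the lower end (chr16:10918529-10919133). It had heights of 21, 30 and 19 in silenced and 18, 28 and 22 in control libraries, an overlapping pair of ranges, and stood among the top 5.33% to 10.9% of the lists. A weaker region at 64.6 kb (chr16:10930623-10931043), within the spans of both CIITA and DEXI, was called in 5 libraries, at a height of 5 in silenced replicate 2, of 3 in silenced replicate 3, and of 7, 4 and 6 in the control libraries. The region at the upper end (chr16:10942325-10942927) covers the listed start of DEXI, with heights of 23, 32 and 9 in silenced and 25, 35 and 20 in control libraries. The tallest region of the window (chr16:10944222-10944955) covers the start of CLEC16A, outside the CIITA span, with heights of 40, 51 and 13 in silenced and 41, 43 and 33 in control libraries. In both, silenced replicate 3 was the lowest library.

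**Figure D3:**
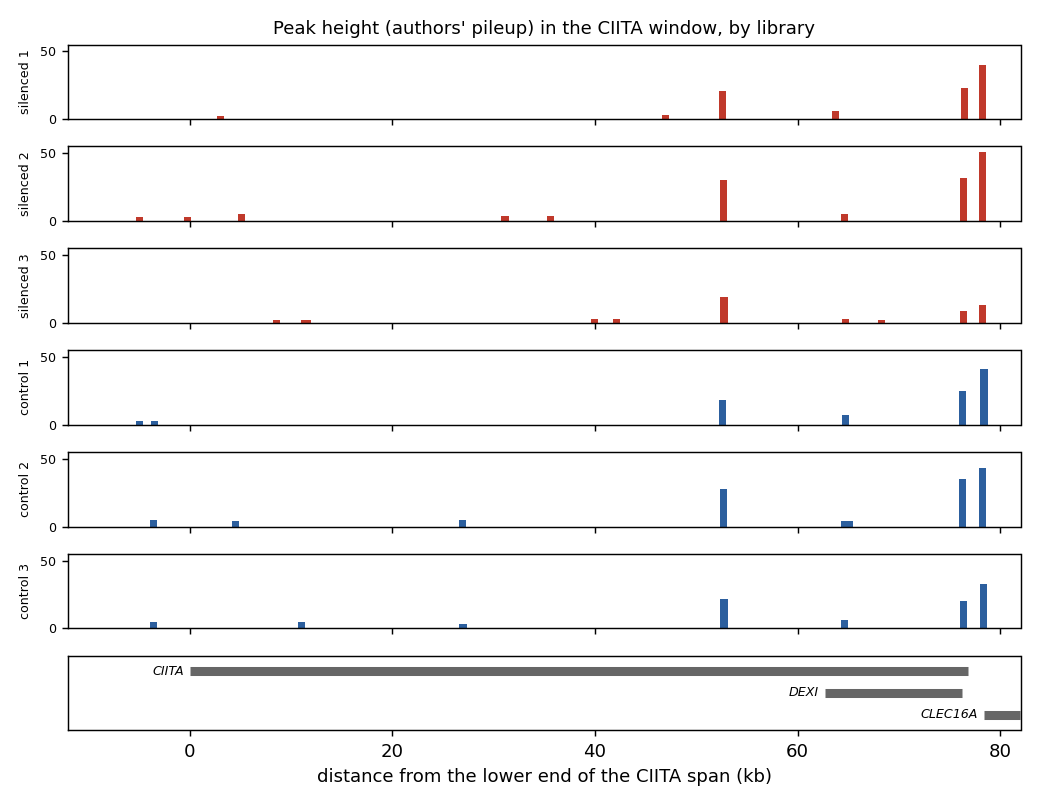
Peak height (y axis, the authors' pileup) along the CIITA window by library (x axis, kb from the lower end of the span), with gene spans below. The peaks called in all 6 libraries stand at 52.6, 76.4 and 78.4 kb, a weaker one in 5 libraries at 64.6 kb, and the first 12 kb of the span hold only scattered peaks no higher than 5.

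The number of peaks in the CIITA window was 6, 9 and 10 in silenced and 6, 8 and 7 in control libraries, or 8.33 ± 2.08 (SD, n = 3) against 7 ± 1 (SD, n = 3). The difference was within the spread (two-sided exact permutation test, p = 0.5). Keeping only peaks with an FDR of at most 1e-05, only those with a height of at least 4, or equal numbers per list, turned its sign, to −0.333, −1.33 and −1.33 peaks (silenced minus control). Of the 22 regions in this window, 14 were called in a single library, where 74.1% of all merged regions of the series were. Per 10 kb of window, CIITA held 0.864 peaks (median over libraries) and HLA-DMA 2.07, and the median over all protein-coding genes was 0.791. A region at −3.51 kb from the lower end (chr16:10862472-10862923) was called in all 3 control libraries, at heights of 3, 5 and 5, and in 0 silenced libraries. It was 1 of the 48 distinct regions in all the windows, and 0.331% of the 507440 merged regions of the series were called in 3 libraries of one group and 0 of the other.

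Over all 10 windows, each silenced library held 26 or 27 peaks, and the control libraries held 25, 25 and 28. The means were 26.7 ± 0.577 (SD, n = 3) and 26 ± 1.73 (SD, n = 3). At an FDR of at most 1e-05 they were 13.3 ± 3.79 and 16.3 ± 0.577 (SD, n = 3 each), and the sign of the difference turned. Of the 48 distinct regions, 17 (35.4%) were called in all 6 libraries and 22 (45.8%) in 1, against 7.35% and 74.1% of all merged regions. The sets are unlike, since the 48 lie by definition in gene windows and the merged regions cover the main chromosomes.

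Silencing was compared at the 17 shared regions by rank, since heights move with the unknown depth. Fold enrichments were ranked within each library among all 37284 regions called in all 6, turned into normal scores (0 is the middle of the list and 1 unit is 1 SD), and tested with limma. After Benjamini-Hochberg adjustment 0 regions (0%) passed 0.05, while 1746 had an unadjusted p-value under 0.05. The scores of 6 of the 17 regions were higher and of 11 lower in silenced cells. Of all 37284 regions, 18960 were higher and 18324 lower. The median difference was −0.10 over the 17, against 0.00662 over all regions. The only 2 with an unadjusted p-value under 0.05 were both at HLA-DMB. Its start region scored 0.49 lower in silenced libraries (difference −0.49, SE 0.205, limma adjusted p = 0.963). A region 7179 bp downstream of that start (chr6:32933594-32934105) scored higher, with a difference of 0.84 (SE 0.394, limma adjusted p = 0.963). There the heights were 18, 11 and 6 in silenced and 8, 7 and 6 in control libraries, so the groups overlapped.

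**Figure D4:**
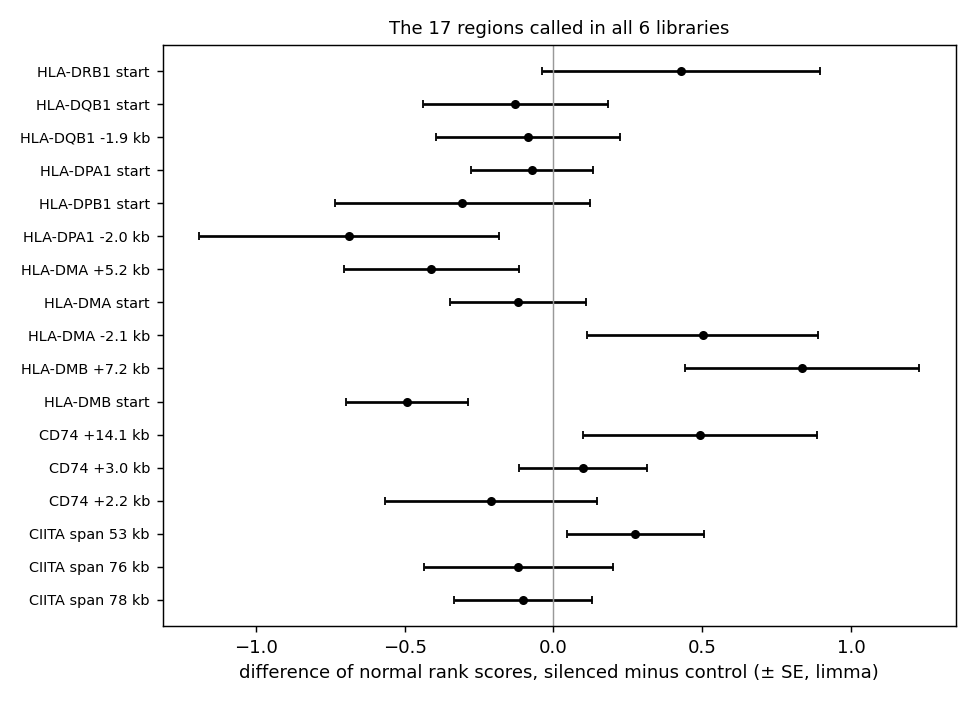
Difference of rank scores (x axis, silenced minus control, with SE from limma) for the 17 regions called in all 6 libraries, named by the nearest listed start or, for CIITA, by kb from the lower end of the span. The start region of HLA-DMB lies at −0.49 and its downstream region at 0.84, and neither passed after adjustment.

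Regions whose groups did not overlap were counted next. Of the 17 regions, 1 (the HLA-DMB start) had all control libraries above all silenced ones in fold enrichment, where 8.44% of all shared regions did. In height 2 did (the HLA-DMB and HLA-DMA starts), against 8.79%. The opposite order occurred at 0 of the 17, against 1.82% of all regions in fold enrichment and 0.161% in height. Silenced replicate 3, the library of lowest background coverage, had the lowest HLA-DMB height (38), and the part of coverage in this difference was not tested. The summed height at the leukocyte marker starts ran from 53 to 57 in control and from 37 to 52 in silenced libraries. Nearly all of it lay at SPI1 and ITGAX, both taken at span ends. At the squamous or epithelial markers the sums overlapped, at 20 to 27 in control and 10 to 33 in silenced libraries. No share over other gene sets was computed, and the part of the leukocyte sum in the HLA-DMB difference was not tested.

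By gene, the strongest peak of each window was ranked among 25675 windows of protein-coding and lncRNA genes with a peak in all 6 libraries. In this fit 0 windows (0%) passed limma's adjusted threshold and 1312 had an unadjusted p-value under 0.05. The difference was −0.56 for HLA-DMB (SE 0.238, limma adjusted p = 0.959) and −0.49 for HLA-DRA (SE 0.247, limma adjusted p = 0.959). Their order was not stable: with a height of at least 4 it was −0.57 for HLA-DMB and −0.67 for HLA-DRA, and ranked by height −0.11 and −0.31. The score of HLA-DRB1 differed by 0.33 (SE 0.313) and that of CIITA, whose strongest peak can be that of a neighbour, by 0.13 (SE 0.210). The sign for HLA-DRB1 turned without control replicate 2 (−0.034) and with windows of 20 kb (−0.21), and CIITA fell to 0.019 without silenced replicate 3. HLA-DPA1 and HLA-DPB1 share their strongest peak and hence their value (−0.10, SE 0.222), which was 0.044 without control replicate 2 and −0.25 without control replicate 1. Within the spans alone the 2 genes differed, at −0.096 for HLA-DPA1 and −0.35 for HLA-DPB1. CD74 differed by 0.098 (SE 0.242), and its sign turned without silenced replicate 3 (−0.14) and without control replicate 2 (−0.017). None of these differences passed limma's adjusted threshold under any alternative. HLA-DQA1 was left out of the fit for its missing peak in control replicate 2.

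The genes of the factors that act on these promoters were open at their starts in every library. Of the 7 genes for the X and Y box complex (RFX5, RFXAP, RFXANK, NFYA, NFYB, NFYC and CREB1), all 7 had a start peak in all 6 libraries. Over all protein-coding genes the share with such a peak in all 6 was 58.9%. RFX5, which carries the DNA contact of the RFX complex, was the tallest, at 104, 148 and 74 in silenced and 132, 126 and 112 in control libraries. All 7 genes of the interferon-γ route to CIITA also had one in every library, the tallest being at IRF1, a transcription factor induced by interferon, with 49, 70 and 27 in silenced and 71, 77 and 61 in control libraries. The groups overlapped for RFX5, and for IRF1 silenced replicate 2 came within 1 fragment of control replicate 1 but stayed above control replicate 3. Of 5 genes for endosomal processing, 4 had a start peak in all 6, the tallest at LGMN, an endosomal protease, with 61, 74 and 49 in silenced and 74, 87 and 60 in control libraries. CTSS, the protease that trims the invariant chain and the gene of this list without a constant start peak, had one in 2 libraries.

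Other class II genes were divided. HLA-DOB and HLA-DOA, which encode the modulator of HLA-DM, had a start peak in all 6 libraries, with heights at HLA-DOB of 14, 16 and 10 in silenced and 20, 20 and 14 in control libraries. HLA-DRB5, HLA-DQA2 and HLA-DQB2 had one in 1 or 2 libraries, none higher than 3. Of the 4 neighbours of CIITA, 3 (DEXI, CLEC16A and NUBP1) had a start peak in all 6 libraries, and NUBP1 had the tallest. Among 5 genes of the class I pathway (HLA-B, HLA-C, B2M, NLRC5 and TAP1), all 5 had a start peak in every library. For these lists too, the share over all protein-coding genes was 58.9%. The median start fold enrichment of the genes was 16.4 in this class I list and 14.0 in the X and Y box list. Over the 10 class II genes it was 6.43, with single genes from 0 (CD74, a missing call counting as 0) to 20.5 (HLA-DMB). The 6.43 lies between HLA-DRA (5.73), taken at a span end, and CIITA (7.12), whose value is that of the DEXI start peak. HLA-DMB was the only one of the 10 above the highest of these class I genes, B2M (17.5). CTSS, HLA-DRB5, HLA-DQA2, HLA-DQB2, HLA-DOA, DEXI, CLEC16A and B2M were named after their values were seen.

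**Figure D5:**
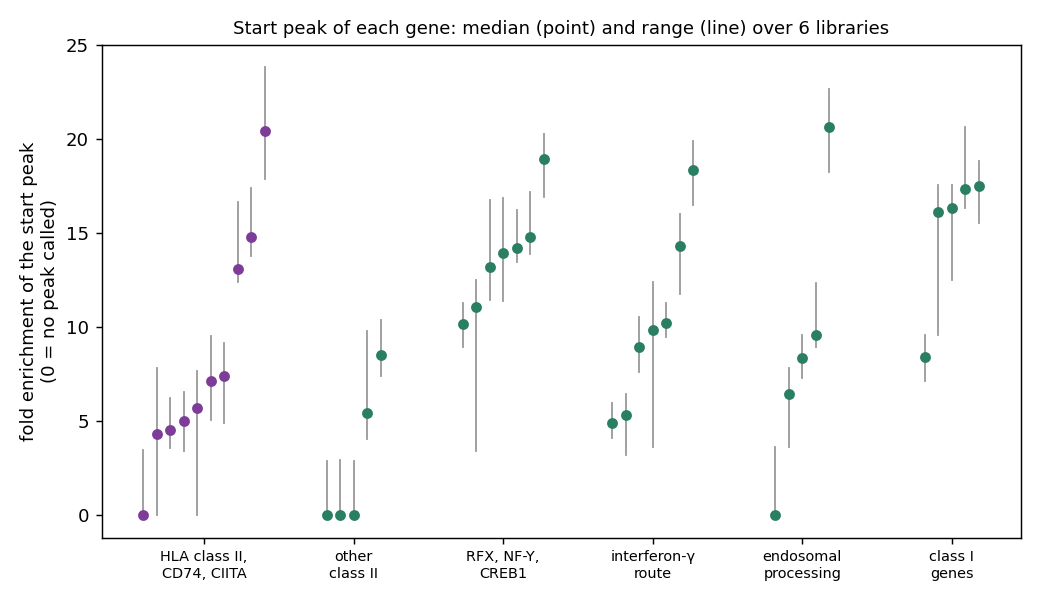
Fold enrichment of the start peak (y axis, 0 where none was called) for each gene of 6 lists, with the median over the 6 libraries as a point and the range as a line. The class II genes run from 0 to 20.5, while the class I genes run from 8.40 to 17.5. The CIITA point is the start peak of its neighbour DEXI.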

How the data were processed

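The data are 6 ATAC-seq peak lists, 3 from silenced and 3 from control NCI-H1703 cells, called per library. Per the submitters' processing notes, which give no role or order, the authors used Trimmomatic 0.36, Bowtie2 2.2.6, Picard 2.8.2, MACS2 2.1.1 and bedtools 2.25.0 with GRCh38. Whether read ends were shifted, or duplicates removed, is not given in the sources used here. Per the file headers, the authors deposited for each peak a fold enrichment (a ratio to background), a p-value, an FDR (an adjusted p-value) and a pileup signal (the height).

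Only the main chromosomes were used. A start peak has its midpoint within 1 kb of a start. Spans and starts came from RefSeq tables of GRCh38.p14. Ranks were tested with limma 3.58.1 (R 4.3.3; lmFit, eBayes with trend, Benjamini-Hochberg over all windows or regions), a step tested on simulated data. Single values per library were compared by exact permutation. Python 3.11.15 did the rest.

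The genes and lists were chosen with earlier results of these data known. All 10 genes are described. Other listed genes were named if their windows held a peak in all 3 libraries of one group and 0 of the other, if they held none, or if their median tallest peak was the highest of their list; exceptions are said to be such. Some listed genes are not reported here. Alternatives were stricter filters, equal list sizes, other windows, other rank measures, the replicate number as a block and leaving out each library. Motifs were searched in promoters only.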

Additional observations from a re-analysis of the deposited data

How the results depend on the processing

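Differences are silenced minus control. For peaks in the windows the difference was 0.667, and it became −3 at an FDR of at most 1e-05, −2.67 at a height of at least 4, −2 with equal list sizes, 2.67 for the spans alone and −2 for windows of 20 kb. The genes with a window peak differed by 0.333 (−1 at an FDR of at most 1e-05), and those with a start peak by −0.333 (−2.33 at that FDR). The genes with a start peak in every library, 7 in all, fell to 3 at that FDR. With that filter and without silenced replicate 3 they were 5. Both settings were chosen after seeing the data, and the share of all protein-coding genes was not computed for them. For CIITA peaks the difference of 1.33 reversed to −0.333 at that FDR and to −1.33 both at a height of at least 4 and with equal list sizes. The place of the CD74 peak differed by −0.0947 percentage points, and reversed to 0.407 at that FDR, 0.156 at a height of at least 4 and 0.0712 with equal list sizes.

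Leaving out 1 library at a time gave 0.167 to 1.67 peaks in the windows, 0 to 0.5 genes with a window peak, −0.833 to 0.167 genes with a start peak, 0.5 to 2.5 CIITA peaks and −0.27 to 0.16 percentage points for CD74. The CD74 sign turned without silenced replicate 3 (0.035) and without control replicate 2 (0.16). In the leave-one-out limma fits 0 to 1 windows and 0 regions passed. The 1 window, without silenced replicate 3, was LINC00539 (limma adjusted p = 0.00714), none of the genes described and named after its value was seen. The cause of these changes was not tested. Every other limma fit gave 0, with 854 to 2462 unadjusted p-values under 0.05. Over these fits the window difference ran from −0.74 to −0.11 for HLA-DMB, −0.67 to −0.31 for HLA-DRA, −0.59 to −0.014 for HLA-DMA, −0.33 to −0.03 for HLA-DQB1, −0.25 to 0.044 for HLA-DPA1, −0.35 to 0.044 for HLA-DPB1, −0.21 to 0.58 for HLA-DRB1, −0.14 to 0.27 for CD74 and 0.019 to 0.28 for CIITA. The lowest adjusted p-value among these was 0.695, for HLA-DMB. The −0.59 for HLA-DMA came with windows of 20 kb, which take in the HLA-DMB start peak and give both genes the same value. Its next lowest value was −0.38, without silenced replicate 3. HLA-DQA1 entered 2 fits, at −0.44 and −0.17.

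With a replicate block the limma fits gave 0 windows and 0 regions, and the paired exact sign-flip test, which cannot go below 0.25, gave p = 0.5 for CIITA peaks (1.33) and p = 0.75 for CD74 (−0.0947). Same-numbered libraries did not deviate together across windows (r of −0.0248, −0.000241 and −0.0174), so the numbers were not taken as pairs. Depth in reads is unknown, so peaks near the calling limit, such as those at the lower end of CIITA, could not be told from absent ones.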
